A study of Mus musculus with 2 samples.

Results

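The microRNA (miRNA) genes described here are Mir193a, Mir193b, Mir365-1 and Mir365-2, which form a pair of paralogous clusters in the mouse genome. They were taken by gene name from the GENCODE M21 annotation and are 4 of the 2202 miRNA genes counted in the series. The 2 libraries are microRNA-seq replicates of 1 group, with no control group, from adrenal tissue of female mice of the strain 5xFAD/CAST, which were adults of 8 to 10 months. 5xFAD is a transgenic Alzheimer's disease model whose transgenes are driven in neurons by the Thy1 promoter, and CAST is an inbred strain of castaneus origin. The labels leave out whether the sampled animals carried the transgenes. The labels number them as biological replicates, each with its own biosample, but give both the same donor identifier and do not state that they came from separate animals. The spread between them may therefore be partly technical, and differences between them are differences between libraries, not conditions.

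A miRNA gene is transcribed into a long precursor, from which a hairpin is cut out and then trimmed to mature arms of about the length of the sequences shown here. Bases 2 to 8 of a mature arm are its seed, which pairs with target messenger RNAs and largely sets which targets are repressed. The Mir193b and Mir365-1 genes are known as a cluster enriched in brown fat, the heat-producing adipose tissue that lies around the mouse adrenal gland. In cultured mouse preadipocytes the cluster has been reported to favour brown fat differentiation, in part by repressing the transcriptional corepressor gene Runx1t1, while mice without it have been reported to form brown fat. In human cells, miR-193a is known to repress the receptor gene KIT in leukaemia, miR-193b the urokinase gene PLAU in breast cancer, and miR-365 the cytokine gene IL6.

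The mature 3p arms are shown first because they divide the 4 genes into a seed family each for miR-193 and miR-365. The sequences are those of RefSeq for GRCm38.p6, the assembly behind mm10, written 5′ to 3′ with the seed in capitals, and all 4 hairpins were identical between RefSeq and GENCODE M21.
miR-193a-3p: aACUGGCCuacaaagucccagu
miR-193b-3p: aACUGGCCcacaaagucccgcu
miR-365-3p: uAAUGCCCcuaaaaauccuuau
The miR-193a-3p and miR-193b-3p arms are 22 bases long, share the seed ACUGGCC, and differ at 3 positions outside it. Counted from the 5′ end, with the miR-193b base first, these are C9U, G20A and C21G. The miR-365-3p arm, with the seed AAUGCCC, is identical in Mir365-1 and Mir365-2. Among the mature mouse sequences of the RefSeq table, neither 3p seed occurred in any miRNA gene outside the 4.

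The 5p arms are shown because they are the arms by which the Mir365 copies can be told apart.
miR-193a-5p: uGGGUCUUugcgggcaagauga
miR-193b-5p: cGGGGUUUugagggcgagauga
miR-365-1-5p: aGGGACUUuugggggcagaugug
miR-365-2-5p: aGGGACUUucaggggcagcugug
The miR-365 5p arms share the seed GGGACUU and differ at 3 of 23 positions, U10C, G11A and A19C with the miR-365-1 base first. The miR-193 5p arms differ at 5 of 22 positions, C1U, G5U, U6C, A11C and G16A with the miR-193b base first. Of these, G5U and U6C fall in the seed, so the 5p arms of miR-193a and miR-193b do not belong to a common seed family. Reads were counted per gene, and no level given here separates the arms.

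Both clusters have the same order, with the miR-193 gene upstream of the miR-365 gene on the plus strand. In mm10, Mir193a (ENSMUSG00000065395.1) lies on chromosome 11 at 79711969 to 79712034 and Mir365-2 (ENSMUSG00000065489.1) at 79726400 to 79726511, 14366 bp further on. Both are intergenic in GENCODE M21, and the nearest protein-coding gene is Rab11fip4, which ends 13946 bp before Mir193a. Mir193b (ENSMUSG00000076972.2) lies on chromosome 16 at 13449523 to 13449601 and Mir365-1 (ENSMUSG00000065449.1) at 13453840 to 13453926, 4239 bp further on. This pair lies opposite to an intron of the noncoding gene Gm15738, and the nearest protein-coding gene is Mrtfb, 31994 bp before Mir193b. The only other miRNA gene within 50 kb of a member was Mir6365, on the opposite strand of chromosome 16, which had 0 reads in both libraries. For uniquely assigned reads, that count allows a level of up to 0.433 CPM in replicate 2 and 0.825 CPM in replicate 1, taking 3 counts as the limit. The hairpins of the Mir193a cluster are 66 and 112 bases long with predicted folding energies of -30.4 and -39.7 kcal/mol for Mir193a and Mir365-2. Those of the Mir193b cluster are 79 and 87 bases long, with -34.1 and -34.5 kcal/mol for Mir193b and Mir365-1.

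The uniqueness of each hairpin decides which of its reads can be counted, because the deposited tables set reads with several genomic matches aside. Such multimapping reads were 33.6% of the sequenced reads of replicate 2 and 31.6% of those of replicate 1, and the tables do not say which genes they match. Each hairpin was cut into all overlapping windows of 20 bases and searched in every GENCODE M21 transcript on both strands. Sequence outside annotated transcripts was not searched. No window of Mir193a (0 of 47) or Mir193b (0 of 60) occurred in another gene. In Mir365-2, 8 of 93 windows occurred in another gene, and in Mir365-1, 8 of 68, in each case in the other Mir365 copy and in no further gene. Those windows form a single run of 27 bases, at positions 65 to 91 of Mir365-2 and 53 to 79 of Mir365-1, which holds the whole miR-365-3p arm. The longest run shared by Mir193a and Mir193b was 10 bases. A read of the exact miR-365-3p sequence therefore matches both Mir365 genes, whereas reads of the 5p arms of either Mir365 gene, and of both arms of Mir193a and Mir193b, have a single match among the annotated transcripts. With such reads set aside, the Mir365 levels below leave out reads of the exact miR-365-3p sequence. They are levels of uniquely assigned reads and may be undercounts of the miRNA.

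**Figure D1:**
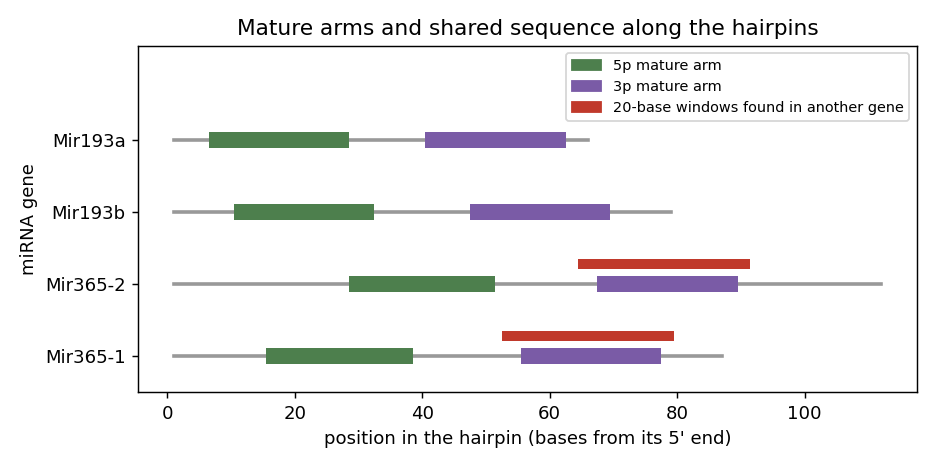
Position along each hairpin in bases from its 5′ end (x axis) for the 4 genes (rows), with the 5p arm in green, the 3p arm in purple and 20-base windows found in another gene in red. The red run spans 27 bases over the 3p arm of Mir365-2 and Mir365-1, and Mir193a and Mir193b have none.

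Reads on miRNA genes numbered 6924829 in replicate 2 and 3635851 in replicate 1, in the count column taken here, which holds reads of 1 strand. Expression is stated in CPM, a gene's reads for every 1000000 reads on miRNA genes of that library. Of the 2202 genes, 356 had at least 10 reads in each library and are called detected, among them all 4 members. The median mean level of the detected genes was 94.6 CPM. No miRNA is specific to the adrenal gland, so the tissue label has no single marker. Mir375, a miRNA of endocrine cells, was at 43996 CPM in replicate 2 and 46454 CPM in replicate 1, while Mir122, the main miRNA of liver, was at 108 and 78.1 CPM in the same libraries.

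All 4 genes were detected, the miR-193 genes between 266 and 859 CPM and the miR-365 genes between 4.19 and 25.6 CPM of uniquely assigned reads. In a bulk gland, fewer cells of a type and less RNA per cell cannot be told apart. Mir193a had 5946 reads in replicate 2 and 2218 reads in replicate 1. Its level was 859 CPM in replicate 2 (95% interval by the exact Clopper-Pearson method, 837 to 881) and 610 CPM in replicate 1 (585 to 636). With a mean of 734 ± 176 CPM (SD, n = 2) it was the most abundant of the 4 and ranked 89 among all genes.

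Mir193b had 1845 reads in replicate 2 and 2101 reads in replicate 1, so the shallower library held more of them. Its level was 266 CPM in replicate 2 (95% interval 254 to 279) and 578 CPM in replicate 1 (553 to 603). The mean was 422 ± 220 CPM (SD, n = 2), rank 113, with a spread between the libraries larger than that of Mir193a. Both miR-193 genes stood above the median of the detected genes in each library.

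Mir365-2 had 98 reads in replicate 2 and 93 in replicate 1. That is 14.2 CPM in replicate 2 (95% interval 11.5 to 17.2) and 25.6 CPM in replicate 1 (20.6 to 31.3), with a mean of 19.9 ± 8.08 CPM (SD, n = 2) and rank 259. Mir365-1 had the fewest reads, 29 in replicate 2 and 18 in replicate 1. Its level was 4.19 CPM in replicate 2 (95% interval 2.80 to 6.01) and 4.95 CPM in replicate 1 (2.93 to 7.82), with a mean of 4.57 ± 0.54 CPM (SD, n = 2) and rank 330. It was the only member that a minimum of 20 reads in each library would have left out. All intervals cover only the counting error of reads within a library. Reads that are PCR copies of the same molecule would make them too narrow even for that.

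The order of levels in each library was Mir193a, Mir193b, Mir365-2 and Mir365-1. Neighbours in that order were apart beyond their counting intervals in each library except Mir193a and Mir193b in replicate 1, whose intervals overlapped. By the spread between libraries, the means of Mir193a and Mir193b lay 312 CPM apart, with SDs of 176 and 220 CPM, so their order is not settled by 2 libraries. Together the 4 genes took 0.114% of miRNA reads in replicate 2 and 0.122% in replicate 1, or 0.118% ± 0.0053 (SD, n = 2). Relative to its mean, their sum thus varied less between the libraries than each of the 4 genes did, though the counting intervals of Mir365-1 overlapped. None of the 4 had a read on the other strand in either library, and the column of reads from both strands held the same counts for all 4.

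**Figure D2:**
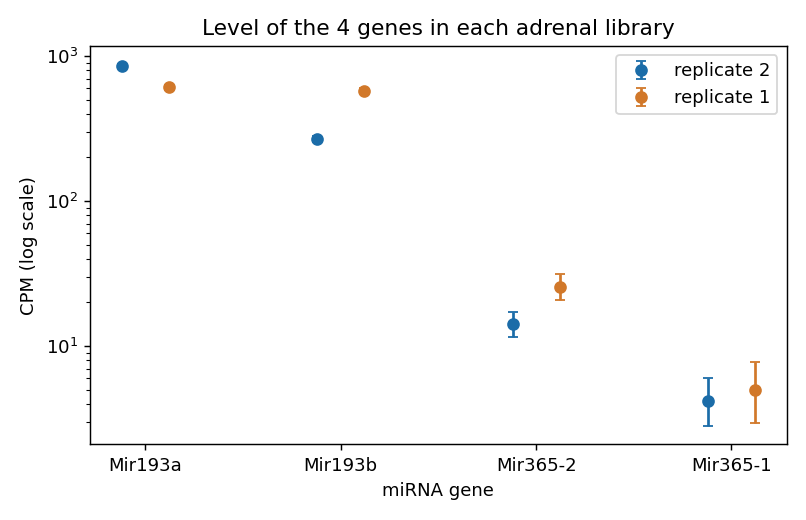
CPM on a log scale (y axis) of the 4 genes (x axis) in replicate 2 (blue) and replicate 1 (orange), with bars for the exact 95% counting interval. Mir193a and Mir193b lie between 266 and 859 CPM and Mir365-2 and Mir365-1 between 4.19 and 25.6 CPM, and Mir193a is the only gene that is higher in replicate 2.

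By level, the detected genes next to Mir193a were Mir181c at 755 ± 149 CPM and Mir214 at 731 ± 212 CPM (SD, n = 2 for each gene in this paragraph), followed outward by Mir182 at 779 ± 212 CPM and Mir501 at 709 ± 48.8 CPM. In the order around Mir193b stood Mir376c at 423 ± 74.1 CPM and Mir770 at 394 ± 15.5 CPM, then Mir15b at 460 ± 164 CPM and Mir338 at 394 ± 74.3 CPM. Over the mean log2 CPM of the 2 libraries, Mir214 lay 0.02 from Mir193a and Mir770 lay 0.01 from Mir193b. Around Mir365-2 were Mir33 and Mir1968 above and Gm23450 and Mir677 below, between 19.6 and 20.7 CPM. Around Mir365-1 were Mir5122 and Mir1948 above and Mir6933 and Mir3065 below, between 4.42 and 4.78 CPM. A likeness of level over 2 libraries says nothing on shared function.

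The next comparison set the clusters against each other. The chromosome 11 cluster, Mir193a with Mir365-2, was at 873 CPM in replicate 2 and 636 CPM in replicate 1, a mean of 754 ± 168 CPM (SD, n = 2). The chromosome 16 cluster, Mir193b with Mir365-1, was at 271 CPM in replicate 2 and 583 CPM in replicate 1, a mean of 427 ± 221 CPM. The chromosome 11 cluster was higher in both libraries, but the ratio was 3.23 in replicate 2 (exact 95% counting interval 3.06 to 3.40) and 1.09 in replicate 1 (1.03 to 1.16). The clusters were therefore nearly level in replicate 1 and apart in replicate 2. A sign test over 2 libraries cannot go below an exact two-sided p of 0.5, so no test over samples was made of this or of the other ratios.

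The paralogs within each family gave different pictures. The count of Mir193a over that of Mir193b was 3.22 in replicate 2 (95% interval 3.06 to 3.40) and 1.06 in replicate 1 (0.994 to 1.12), so in replicate 1 a ratio of 1 lay within the counting interval. This ratio differed 3.05-fold between the libraries, and being a ratio within a library it does not depend on scaling. The count of Mir365-2 over that of Mir365-1 was 3.38 in replicate 2 (95% interval 2.21 to 5.31) and 5.17 in replicate 1 (3.10 to 9.10), and these intervals overlap. In each family the chromosome 11 copy had more reads in each library. The shares of the shared miR-365-3p arm that come from each copy cannot be told apart with these counts.

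The partners within each cluster were far apart in level. Mir193a was 60.7 times Mir365-2 in replicate 2 (95% interval 49.7 to 74.9) and 23.8 times in replicate 1 (19.4 to 29.7). Mir193b was 63.6 times Mir365-1 in replicate 2 (44.1 to 95.3) and 117 times in replicate 1 (73.7 to 197). The miR-193 gene of a cluster thus had more uniquely assigned reads than its partner in each library, in amounts that differed between the libraries. For the chromosome 11 pair the ratio was 2.54-fold higher in replicate 2. For the chromosome 16 pair it was 1.83-fold higher in replicate 1, with overlapping intervals. These ratios compare uniquely assigned reads. In each pair the partner with few reads is the one whose 3p arm has another match in the genome. Reads of that exact 3p sequence are left out, so the ratios do not compare the amounts of miR-193 and miR-365. The part of miR-365-3p reads with several matches in these ratios was not tested.

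Other neighbouring miRNA genes give the scale. Among the detected genes there were 115 pairs of adjacent miRNA genes that share a strand and lie within 20 kb. Their median difference in level was 2.56 on the log2 scale. The difference was 6.43 for Mir193b and Mir365-1, with 9 of the 115 pairs further apart, and 5.25 for Mir193a and Mir365-2, with 16 pairs further apart. In 43 pairs, these included, 1 of the genes shares 20 bases with another miRNA gene. Their median difference was 2.57, against 2.33 in the 52 pairs where neither gene does. Sharing was counted on either strand, so it takes in genes that overlap another miRNA gene on the opposite strand of the same locus. Such an overlap is a single place in the genome, so the comparison does not measure the loss of reads with several matches. Of the 94 genes with a RefSeq mature arm that is also encoded at another locus, 46 were detected, with a median of 42.2 CPM. Of the 924 genes whose mature arms have 1 locus, 277 were detected, with a median of 117 CPM. Mir365-2 and Mir365-1, at 19.9 and 4.57 CPM, stood below the first of these medians, and Mir193a and Mir193b, at 734 and 422 CPM, above the second.

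**Figure D3:**
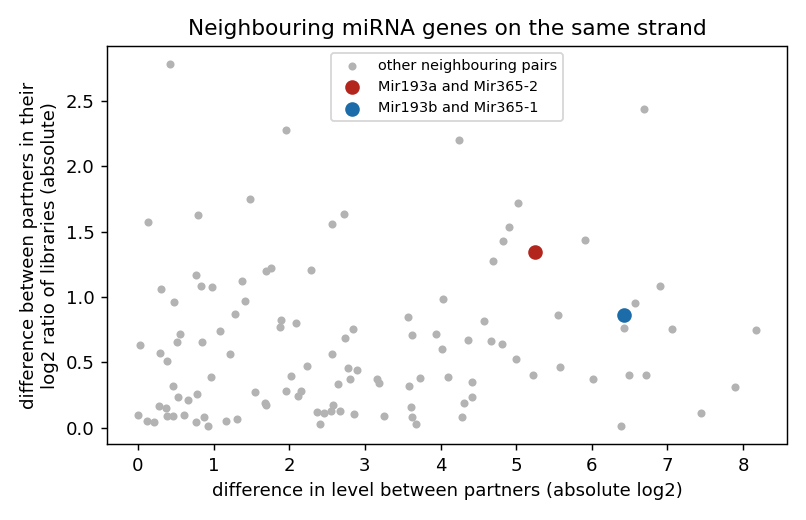
Absolute difference in mean log2 CPM between partners (x axis) and absolute difference between partners in their log2 ratio of replicate 2 over replicate 1 (y axis) for 115 pairs of neighbouring detected miRNA genes on the same strand. Mir193b and Mir365-1 lie at 6.43 and 0.86, Mir193a and Mir365-2 at 5.25 and 1.35.

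The libraries were then compared gene by gene with Fisher's exact test on reads (two-sided, Benjamini-Hochberg adjustment over all 455 genes with at least 10 reads in the libraries together). Of the 4 members 3 were called, against a background of 52.5% of all genes tested, so a count of 3 says little about these genes in particular. Mir193a was higher in replicate 2, with 859 CPM there and 610 CPM in replicate 1, a ratio of 1.41 (95% counting interval 1.34 to 1.48) and a log2 ratio of 0.49 (adjusted p = 3.83e-44, Fisher's exact test). In the direction of higher in replicate 2, 16.9% of all genes were called. Mir193b had 266 CPM in replicate 2 and 578 CPM in replicate 1 and was thus lower in replicate 2, with a ratio of 0.461 (0.433 to 0.491) and a log2 ratio of -1.12 (adjusted p = 5.56e-128, Fisher's exact test). Mir365-2 was also lower in replicate 2, with 14.2 CPM there and 25.6 CPM in replicate 1, a ratio of 0.553 (0.412 to 0.743) and a log2 ratio of -0.85 (adjusted p = 0.000131, Fisher's exact test). In the direction of lower in replicate 2, 35.6% of all genes were called. Mir365-1 was not called, with 4.19 CPM in replicate 2 and 4.95 CPM in replicate 1, a ratio of 0.846 with an interval of 0.454 to 1.62 and a log2 ratio of -0.26 (adjusted p = 0.740, Fisher's exact test).

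The Fisher p-values take in counting error alone. In edgeR's exact test, which includes the spread between the libraries through a common dispersion estimated from the same 2 libraries, none of the 4 was called, with an adjusted p of 1 for each. The unadjusted p in edgeR's exact test was 0.0895 for Mir193b, 0.224 for Mir365-2, 0.449 for Mir193a and 0.809 for Mir365-1, so 0 of the 4 were under 0.05 before adjustment. This test sets 1 library against 1 library and takes its dispersion from the differences it tests, so it leaves little room for a call, and a p above the threshold does not show that the libraries were alike. By that test 1.1% of all genes were called after adjustment and 5.71% before it. The common dispersion corresponds to a coefficient of variation between the libraries, beyond counting error, of 31.4% over 356 genes.

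Relative to the other genes, Mir193a and Mir193b differed between the libraries in opposite directions with plain totals, TMM factors and DESeq2 size factors. The median log2 ratio of the detected genes was -0.19 with plain totals, and relative to it Mir193a stood at 0.69, Mir193b at -0.92, Mir365-2 at -0.66 and Mir365-1 at -0.06. Of the 356 detected genes, 89 lay further from that median than Mir193a, 40 further than Mir193b, 94 further than Mir365-2 and 317 further than Mir365-1. Among genes within 2-fold of the same level, 14 of 56 lay further from it than Mir193a and 8 of 59 further than Mir193b. By the size of the log2 ratio itself, with no median taken off, 154 detected genes exceeded Mir193a, 28 exceeded Mir193b, 62 exceeded Mir365-2 and 231 exceeded Mir365-1.

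Mir193a and Mir193b share a 3p seed, and pairs of this kind were compared. Among 207 pairs of detected genes with a seed in common, the median difference between their log2 ratios was 0.38. For Mir193a and Mir193b the difference was 1.61, which 10 of the 207 pairs exceeded. Among 114 such pairs with both genes at a mean of at least 100 CPM the median was 0.26, and 5 pairs exceeded the miR-193 pair. Mir193a and Mir365-2, which are neighbours, differed by 1.35 in their log2 ratios, which 13 of the 115 neighbouring pairs exceeded, against a median of 0.47. Mir193b and Mir365-1 differed by 0.86, which 30 pairs exceeded. These pairs overlap in their genes, and the counts are a description of 2 libraries.

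**Figure D4:**
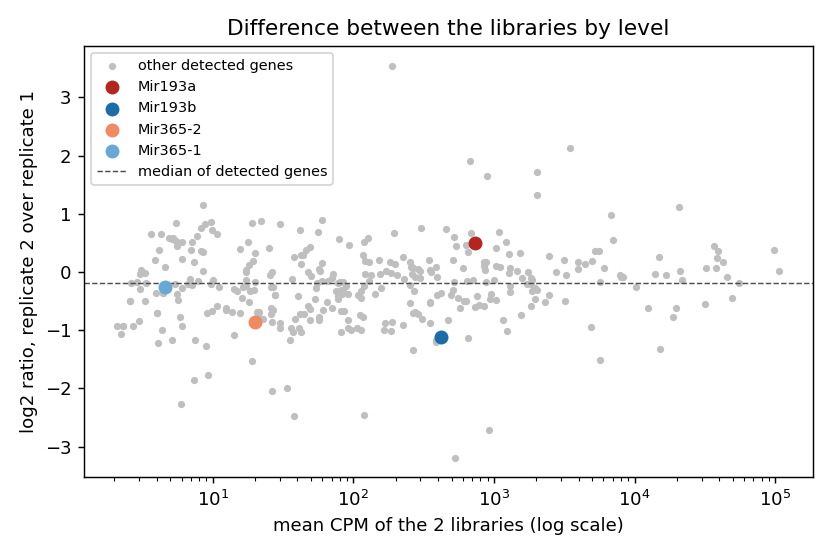
Log2 ratio of replicate 2 over replicate 1 (y axis) against the mean CPM of the 2 libraries on a log scale (x axis) for 356 detected genes, with the 4 members in colour and the median of -0.19 as a dashed line. Mir193a lies above the median at 0.49 and Mir193b below it at -1.12, with Mir365-2 at -0.85 and Mir365-1 at -0.26.

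The 4 genes were set beside other miRNAs reported to act in brown or beige fat. These lists were drawn from general knowledge, and most of their genes are also expressed in many other tissues, so they do not measure the amount of fat in a gland. All 11 genes reported to favour brown fat were detected, beside 356 (16.2%) of all 2202 genes. Mir378a, from an intron of the coactivator gene Ppargc1b, led with 42078 CPM in replicate 2 and 35470 CPM in replicate 1. This level is uncertain because the count columns disagree on it. Its 291385 and 128963 reads are all missing from the column of both strands, where it is listed at 0. That column sets 805965 reads of replicate 2 and 476126 of replicate 1 aside as ambiguous, and whether the Mir378a reads are among them was not tested. Mir378a also shares 20 bases with another miRNA gene, counted on either strand. Mir328 was at 2451 ± 478 CPM and Mir455, which like the Mir193b cluster is reported to repress Runx1t1, at 1078 ± 356 CPM (SD, n = 2). Mir203 at 845 ± 74.2 CPM and Mir182 at 779 ± 212 CPM also had higher means than Mir193a at 734 ± 176 CPM and Mir193b at 422 ± 220 CPM. The order of Mir182 and Mir193a turned between the libraries, with Mir182 at 629 CPM and Mir193a at 859 CPM in replicate 2 and at 930 and 610 CPM in replicate 1.

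The other 6 genes of this list stood below Mir193b in mean level, though in replicate 2 Mir30c-2, at 274 CPM, was above Mir193b, at 266 CPM. Mir30c-2, Mir30b and Mir30c-1, which are reported to target the corepressor Nrip1, were at 268 ± 9.64, 225 ± 97.3 and 153 ± 16.1 CPM (SD, n = 2). Mir196a-2 and Mir196a-1, which target the homeobox gene Hoxc8, were at 133 ± 3.66 and 18.1 ± 1.12 CPM, and Mir32 at 47.5 ± 13.4 CPM. Mir30c-2, Mir30c-1, Mir196a-2 and Mir196a-1 each share 20 bases with another miRNA gene, whereas Mir193b does not. Their levels and ranks, and the share of the list given next, may therefore be undercounts. The list took 4.78% of miRNA reads in replicate 2 and 4.17% in replicate 1, a mean of 4.48% ± 0.432 (SD, n = 2). Without Mir378a, a choice made after its values were seen, the mean was 0.600% ± 0.0348, about 5 times the 0.118% of the 4 members.

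By Fisher's exact test, 4 of these 11 genes were called higher and 4 lower in replicate 2, beside 16.9% higher and 35.6% lower over all genes tested, and the median log2 ratio was 0.07, against -0.19 over all detected genes. Mir455 had 1330 CPM in replicate 2 and 826 CPM in replicate 1, a log2 ratio of 0.69 (adjusted p = 2.16e-121, Fisher's exact test). Its direction was thus that of Mir193a and the opposite of that of Mir193b and Mir365-2. Mir30b, at 156 CPM in replicate 2 and 294 CPM in replicate 1, a log2 ratio of -0.91 (adjusted p = 7.27e-47, Fisher's exact test), went the way of Mir193b. No list gene was called by edgeR's exact test, which, as stated above, leaves little room for a call. The lack of calls therefore says little about the lists.

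Of the 9 genes reported to oppose brown fat, 6 were detected, beside 16.2% of all genes. Mir27b, which targets Prdm16, a regulator of brown fat identity, was at 5016 ± 481 CPM, Mir34a at 3145 ± 330 CPM, Mir93 at 2020 ± 299 CPM, Mir27a at 1104 ± 51.2 CPM and Mir106b at 637 ± 153 CPM (SD, n = 2). Mir155, which targets Cebpb, was at 253 ± 28.3 CPM. By Fisher's exact test 3 were higher and 3 lower in replicate 2, with a median log2 ratio of -0.07 over the 6 detected genes. Over all genes tested 16.9% were called higher and 35.6% lower, and genes with many reads, as these have, pass a test of counting error on small differences. The muscle and fat miRNAs Mir133a-1, Mir133a-2 and Mir133b had 0 reads, but each shares 20 bases with another miRNA gene, so this sets no limit on their expression. The list took 1.24% of miRNA reads in replicate 2 and 1.19% in replicate 1. Mir27a and Mir27b also share 20 bases with another miRNA gene, so their levels and the share of the list may be undercounts.

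By uniquely assigned reads, markers of striated muscle were close to the limit of counting. The list of 5 genes took 0.000563% of miRNA reads in replicate 2 and 0.000578% in replicate 1. Mir499 was its only detected gene, at 4.48 CPM in replicate 2 and 2.75 CPM in replicate 1. Mir206 had 6 and 10 reads and Mir208b 2 and 1 in the same libraries. Mir1a-1 and Mir1a-2 had 0 reads, but each shares sequence with another miRNA gene, so this sets no limit on their expression or on that of the list. Only 2 genes of this list, Mir499 and Mir206, had enough reads to be tested. Neither was called by Fisher's exact test, beside 52.5% of all genes tested. With so few genes and reads, this says little about the list. The part of brown fat around the gland in the levels of the 4 members, and in their difference between the libraries, was not tested.

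**Figure D5:**
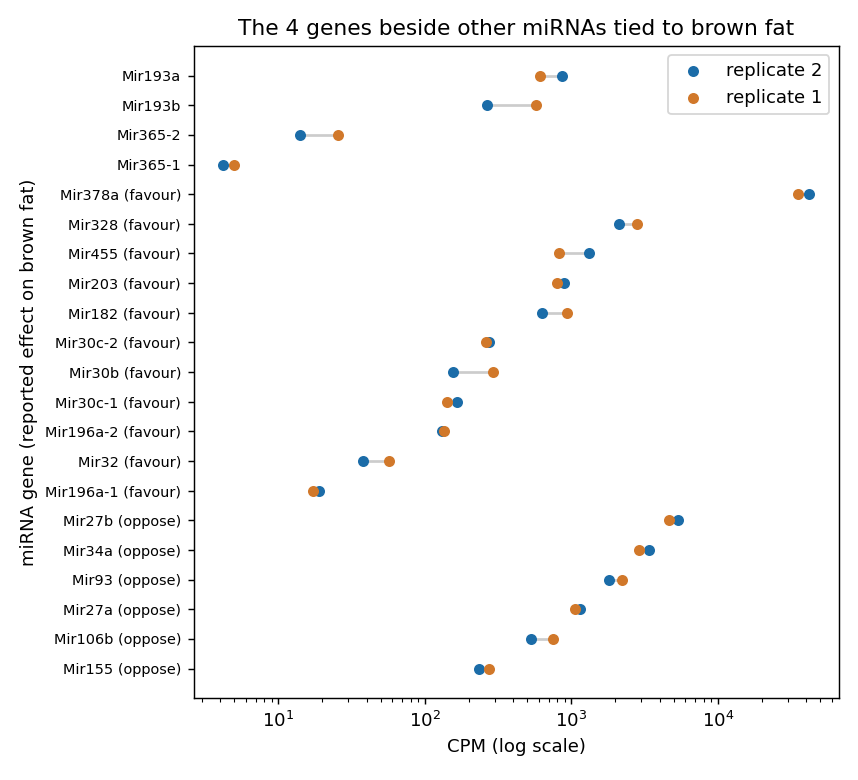
CPM on a log scale (x axis) in replicate 2 (blue) and replicate 1 (orange) for the 4 members and for the 17 detected genes reported to favour or oppose brown fat (rows). Mir193a and Mir193b lie between 266 and 859 CPM, and Mir365-1 at 4.19 and 4.95 CPM is the lowest.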

How the data were processed

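MicroRNA-seq was made from 2 adrenal libraries of 1 group. The authors deposited raw read counts per miRNA gene in 3 unnamed columns, with assembly mm10 and annotation GENCODE M21 per the deposited notes. The sources used here do not name the aligner, the counter or the trimming. The columns were read from the values as both strands, 1 strand and the other strand. Column 3 was used and column 2 kept as a check. The rows that name no gene stayed out of totals and held, in column 2, 60.2% of the reads of replicate 2 and 59.4% of those of replicate 1.

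CPM used the total of miRNA-gene reads. Log2 ratios used an offset of 0.5 counts, and detection needed 10 reads in each library. Each Fisher p was adjusted over all genes with at least 10 reads in the libraries together. Counts over those genes differed between the replicates beyond sampling noise (chi-square 232300 on 454 degrees of freedom). Libraries made from the same RNA can also differ in this way, so it does not show that they came from separate animals. Both were kept as separate libraries. Alternatives were the other column, TMM and DESeq2 size factors (exact binomial test with scaled totals), other totals, filters and offsets, edgeR's exact test, and leaving out a library.

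The members, lists and alternatives were chosen with earlier results of these data known. Genes named are the 4 members, miRNA genes within 50 kb or with a shared seed, the 2 detected genes on either side in level, and the list genes. Mir375 and Mir122 were added as a check of the tissue. Sequences came from RefSeq, and hairpins were folded with ViennaRNA 2.7.2. Tests ran in scipy 1.17.1 under Python 3.11.15, and in DESeq2 1.42.0 and edgeR 4.0.16 under R 4.3.3.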

Additional observations from a re-analysis of the deposited data

How the results depend on the processing

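Of 85 alternatives over 23 results, 24 leave out a library, which with 2 libraries only gives the value of the other one, and 5 take ratios from column 2, where the counts of the 4 members are the same. Neither kind checks stability. No log2 ratio of a member changed sign under the alternatives run for it. With edgeR's exact test the log2 ratios of Mir193b (-1.12), Mir193a (0.49) and Mir365-2 (-0.85) were no longer called, and the genes called fell to 5, against 239 with Fisher's test. The split of called genes into higher and lower in replicate 2 was 77 and 162 with plain totals, 111 and 125 with TMM factors and 121 and 117 with DESeq2 size factors. Across these scalings and column 2, the log2 ratio ranged from -1.14 to -0.93 for Mir193b and from 0.47 to 0.68 for Mir193a. The total of CPM set the level. Over all mapped reads, Mir193a was at 401 CPM, Mir193b at 233, Mir365-2 at 10.9 and Mir365-1 at 2.51. Over a total without the 10 most abundant genes, Mir193a was at 1646 CPM, Mir193b at 926, Mir365-2 at 43.7 and Mir365-1 at 10.1. In column 2 Mir365-1 was at 5.22 CPM. There the list reported to favour brown fat took 0.689% of reads, as Mir378a is listed at 0, and without Mir378a it took 0.600% in column 3. The list reported to oppose brown fat took 1.39% and the muscle list 0.000651% in column 2. With a minimum of 1 read 599 genes were detected, against 356 with 10, and with 20 reads 3 of the 4 members were. Leaving out a library gave levels of 266 to 578 CPM for Mir193b and 610 to 859 CPM for Mir193a, and a ratio of Mir193a to Mir193b of 1.06 without replicate 2 and 3.22 without replicate 1. With windows of 18 bases in place of 20, chosen after seeing the data, 12 windows of Mir365-1 and 10 of Mir365-2 were shared with another gene and 0 of the miR-193 genes. At 18 bases the windows of Mir365-1 were shared with Mir365-2 and with a further gene, Vmn1r193, and those of Mir365-2 with Mir365-1 only. No paired analysis was possible because there is only 1 group. Depth limits Mir365-1 most, with 29 and 18 reads in replicates 2 and 1.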
